A study of Mus musculus with 6 samples.

Results

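The SOX genes described here are Sox4, Sox11 and Sox12 of the SoxC group, Sox5, Sox6 and Sox13 of the SoxD group, and Sox7, Sox17 and Sox18 of the SoxF group. They were taken by symbol from the table of read counts per gene and make up 9 of its 49671 genes; Sox9 and Sox10 were left aside. RNA was sequenced from embryonic mouse pancreata at 14.5 dpc, strain C57BL/6J, from 3 controls and from 3 samples given 10 µM AMI-5, with no other allele or agent named. AMI-5 is a compound that blocks protein methyltransferases, both of arginine and of lysine, and the study asked how it affects differentiation of the pancreas. How the pancreata were grown and treated, for how long, and with what vehicle for the controls is not stated in the sources used.

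SOX proteins are transcription factors that bind the minor groove of DNA through an HMG box and bend it. The groups differ outside the box as well as within it. SoxC proteins carry a transactivation domain and act in progenitors and maturing neurons, and in mouse pancreas Sox4 takes part in the formation of endocrine cells. SoxD proteins have no known activation or repression domain, pair through a coiled coil and assist Sox9 in cartilage. SoxF proteins direct the formation of blood and lymphatic vessels, and Sox17 is also a factor of early endoderm.

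The coding sequence at the start of the HMG box shows how close the members are to each other, which matters for assigning reads. Each line gives 60 bases of the coding strand, 5′ to 3′, from the GENCODE M21 transcripts, with mm10 coordinates, and each stretch lies within 1 coding exon. Capitals mark bases that differ from Sox4.
Sox4, chr13:28952782-28952841, minus strand: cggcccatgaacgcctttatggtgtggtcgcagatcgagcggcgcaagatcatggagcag
Sox11, chr12:27342199-27342258, minus strand: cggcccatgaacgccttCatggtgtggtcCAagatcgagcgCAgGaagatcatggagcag
Sox12, chr2:152397516-152397575, minus strand: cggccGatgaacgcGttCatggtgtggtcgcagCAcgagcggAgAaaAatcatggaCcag
Sox5, chr6:143841214-143841273, minus strand: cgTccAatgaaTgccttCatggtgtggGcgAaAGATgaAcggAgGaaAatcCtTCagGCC
Sox6, chr7:115489703-115489762, minus strand: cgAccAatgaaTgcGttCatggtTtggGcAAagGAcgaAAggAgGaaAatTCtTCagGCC
Sox13, chr1:133385506-133385565, minus strand: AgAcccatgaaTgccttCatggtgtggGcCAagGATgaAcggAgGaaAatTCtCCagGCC
Sox7, chr14:63943894-63943953, plus strand: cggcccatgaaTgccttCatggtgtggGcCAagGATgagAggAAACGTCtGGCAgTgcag
Sox17, chr1:4493140-4493199, minus strand: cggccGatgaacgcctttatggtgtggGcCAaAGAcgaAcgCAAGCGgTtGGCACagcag
Sox18, chr2:181671222-181671281, minus strand: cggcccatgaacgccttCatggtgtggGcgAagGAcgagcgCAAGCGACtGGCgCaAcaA
Over this stretch Sox11 differed from Sox4 at 6 bases and Sox12 at 9, while the SoxD and SoxF genes differed at 19 to 23. Over 207 bases of the box, identity was 78.3% to 90.8% for the 9 pairs within a group and 55.6% to 70.5% for the 27 pairs across groups. The longest identical run in the box was 48 bases, between Sox4 and Sox11. None of the 50-base sequences (50-mers) of Sox6, Sox11, Sox12, Sox13 or Sox18 occurred in another annotated gene. For Sox4, 54.1% of 50-mers lie in Gm26735, a noncoding RNA on the opposite strand that overlaps 2616 of its exonic bases. Sox17 shares 14.99% with the opposite-strand transcript Gm37587, Sox5 shares 8.98%, mostly with the antisense gene Sox5os1, and Sox7 shares 0.0615%. The libraries were strand specific, but the strand setting of the counting is not given, so reads of a gene and its antisense partner may not be told apart. Counts of Gm26735 were 61 to 151 per library against 8155 to 13715 for Sox4, and Gm37587 and Sox5os1 had 0 or 1 read in each library. These low counts do not settle the matter, since reads of an overlap may have been assigned to neither gene. The level of Sox4 may then be understated.

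Gene counts summed to 12445425 to 13321899 per control library and to 22894312 to 24805188 per AMI-5 library, so a gene of the same CPM had fewer reads in controls. CPM below are counts per 1000000 counts of a library, with library sizes adjusted by the TMM method. Markers of pancreas were present in every library: all 10 genes of a pancreas list, Pdx1, Ptf1a and Neurog3 among them, passed the filter on low counts. That list had 4 genes higher and 3 lower, and its digestive enzyme genes Pnliprp1, Cpa1 and Cel brought its sum from 22422 to 32233 CPM in controls to 62487 to 72971 CPM with AMI-5. AMI-5 replicate 2 stood apart in red cell genes, whose 14 listed members summed to 252 CPM there, against 101 and 85.7 in the other AMI-5 libraries and 23.8 to 44.1 in controls. The labels do not say whether replicates are separate animals, litters or cultures, so p-values speak only of the spread among these 6 libraries, possibly a technical one. The labels give an older version of the library kit (Ultra I in place of Ultra II) for A samples, and the control titles carry A1 to A3 while the AMI-5 titles carry Am1 to Am3. If only the controls are meant, kit and treatment cannot be told apart. In whole tissue, fewer cells of a type and less RNA per cell cannot be told apart either.

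All 9 SOX genes passed the filter and were tested. With AMI-5, Sox13, Sox12, Sox6 and Sox4 fell by 0.66, 0.47, 0.44 and 0.16 on the log2 scale, and 0 rose (quasi-likelihood F test of edgeR, with p adjusted by Benjamini-Hochberg over all genes tested and a threshold of 0.05). DESeq2 and limma voom also called 4 lower and 0 higher, and at an unadjusted p under 0.05 the counts were the same. Read beside the 26.6% of all 17519 tested genes called lower and the 27.5% called higher, 4 of 9 lower is a small count. The falls lay in the SoxC group (2 of 3) and the SoxD group (2 of 3), while 0 of 3 SoxF genes passed. The median log2 fold change of the 9 genes was -0.16, against -0.0013 over all tested genes. In 5 of the 9, all 3 AMI-5 values lay below all 3 control values, as they did in 30.6% of tested genes, and in 0 they lay above, against 31.3%. With trends of GC content and length taken out over all genes, 3 were lower (Sox5, Sox6 and Sox11) and 1 was higher (Sox12), beside 33.4% and 23.4% of all tested genes. Over protein-coding genes alone, 2 were lower (Sox6 and Sox13) and 0 higher, beside 26.5% and 15.7%. In these settings a smooth curve of counts against GC content and gene length was estimated in each library and subtracted. Calls over all genes were 50.9% higher ones, against 40.2% with libraries scaled by their totals alone, where the same count of 4 SOX genes was lower. The calls of Sox4 and Sox12 and the direction of Sox13 changed with the processing, as given with each gene.

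**Figure D1:**
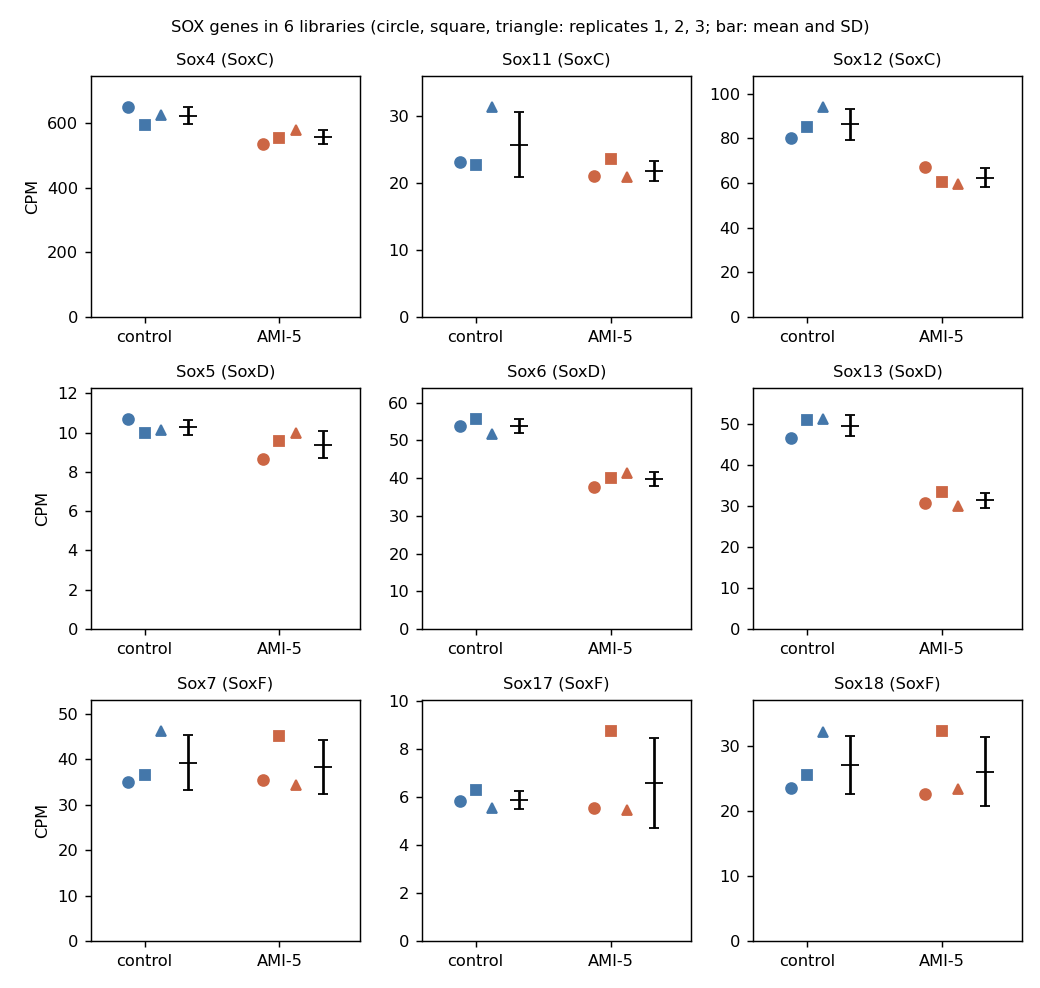
CPM of each SOX gene in the 6 libraries, with axes from 0 and the mean and SD (n = 3) beside each group. Sox12, Sox6, Sox13, Sox4 and Sox5 have every AMI-5 library below every control library, while the 3 SoxF genes overlap and have their highest AMI-5 value in replicate 2.

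Levels differed widely between members. Compared per kilobase of merged exons, so that genes of unequal length can be set side by side, Sox4 led in both groups at 130 ± 5.71 CPM per kb (SD, n = 3) in controls and 116 ± 4.54 under AMI-5. Sox4 alone made up 63.2% to 69.8% of the summed level of the 9 genes in each library. In controls the mean levels per kb then ran from Sox12 at 19.4 and Sox18 at 16.7 to Sox7 at 11.9 and Sox13 at 11.5. Lower still were Sox6 at 3.62, Sox11 at 3.09, Sox17 at 1.23 and Sox5 at 0.714 CPM per kb. The ranges of Sox12 and Sox18, of Sox7 and Sox13, and of Sox6 and Sox11 overlapped, so the order within these pairs is not settled. With AMI-5 the order was the same except that the mean of Sox18 (16.1) stood above that of Sox12 (14.0), again with overlapping ranges. There the ranges of Sox12 and Sox7 and of Sox6 and Sox11 also overlapped, and Sox13, at 7.29, now lay below the range of Sox7. Merged exons of all isoforms are longer than any 1 transcript, so levels of the multi-isoform genes Sox5 and Sox6 are understated.

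**Figure D2:**
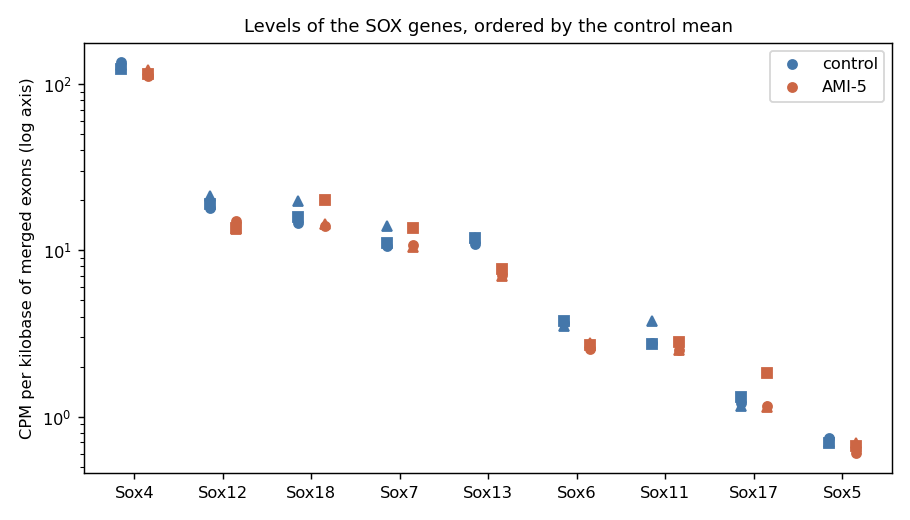
Levels of the 9 SOX genes in CPM per kilobase of merged exons on a log axis, ordered by the control mean, with circles, squares and triangles for replicates 1, 2 and 3. Sox4 lies far above the others, and Sox13 drops from 11.5 to 7.29 CPM per kb between the groups.

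Among the SoxC genes, which act in progenitors, Sox4 was lower by a small margin. Sox4 (ENSMUSG00000076431, chromosome 13, 28948919 to 28953713, minus strand, mm10), a factor of endocrine formation in mouse pancreas, measured 648, 594 and 625 CPM in controls and 535, 553 and 579 CPM with AMI-5. The groups did not overlap, but the highest AMI-5 library and the lowest control library were close. Its log2 fold change was -0.16 (SE 0.058, edgeR adjusted p = 0.0310), which is 10.7% lower. That call ended in 12 of 18 alternative settings. It was lost when control replicate 1 (-0.14) or 3 (-0.16) was left out, and likewise for AMI-5 replicate 1 (-0.13) or 2 (-0.14), and trend removal over all genes gave 0.0095.

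Sox12, the SoxC gene whose loss is known to be tolerated in mice, fell by more. Sox12 (ENSMUSG00000051817, chromosome 2, 152393611 to 152398063, minus strand, mm10) measured 79.9, 84.9 and 93.9 CPM in controls and 67.1, 60.6 and 59.6 CPM with AMI-5. Every AMI-5 library lay below every control library. This is a log2 fold change of -0.47 (SE 0.073, edgeR adjusted p = 0.000196), or 27.6% lower. Its transcript has a GC content of 59.9%. Removing GC and length trends turned the value to 0.25 over all genes (adjusted p = 0.00690) and left -0.11 over protein-coding genes (adjusted p = 0.196), so the fall of Sox12 did not hold there.

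Sox11, a factor of neurons and of organ growth, was not called. Sox11 (ENSMUSG00000063632, chromosome 12, 27334264 to 27342574, minus strand, mm10) measured 23.1, 22.6 and 31.3 CPM in controls and 21.0, 23.5 and 20.8 CPM with AMI-5. Control replicate 3 stood above the other libraries, and the remaining values of both groups overlapped. At -0.24, its log2 fold change had a 95% interval of -0.51 to 0.030 (edgeR adjusted p = 0.121). Without control replicate 3 it was -0.075. After trend removal over all genes it was -0.39 and passed (adjusted p = 0.0119), and over protein-coding genes it was -0.27 (adjusted p = 0.0857).

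Endocrine progenitors are the pancreatic cells in which Sox4 has its best known role. Counts of called genes in each marker list are to be read beside the 26.6% of all tested genes called lower and the 27.5% called higher. Of 18 listed endocrine progenitor genes, 12 were lower and 0 higher, and the median log2 fold change stood at -0.64. At an unadjusted p under 0.05 edgeR still gave 0 higher, as did DESeq2 and limma voom after adjustment. Hes6, a Hes family factor of endocrine and neural precursors, went from 76.0 ± 4.61 to 42.4 ± 3.88 CPM and Insm1, a zinc finger factor of endocrine precursors, from 57.4 ± 5.18 to 34.2 ± 1.75 CPM (SD, n = 3). The Notch ligand Dll1 fell by 1.03 on the log2 scale. Nkx2-2, a factor of several islet cell types, went from 67.6 ± 3.07 to 55.7 ± 3.66 CPM. Its level over the 6 libraries was also the most like that of Sox4 among 128 tested list genes (Pearson r = 0.987 of log2 CPM, a description over 2 groups that share libraries). Of 15 epithelial genes, 11 were lower and 2 higher, the median being -0.36, and with trends removed over protein-coding genes 7 were lower and 3 higher. Lower were the keratin Krt7 (-0.51), the protease inhibitor Spint1 (-0.51), the splicing factor Esrp2 (-0.49) and the transcription factor Grhl2 (-0.49). Higher were the keratin Krt18 (0.21, edgeR adjusted p = 0.0267) and the splicing factor Esrp1 (0.25, adjusted p = 0.0112), relatives of genes that fell, named after their values were seen. Spint2, another protease inhibitor, was at -0.36, and the adhesion protein gene Cdh1 was not called (-0.11, edgeR adjusted p = 0.219). The summed level of the epithelial list was 4078 to 4766 CPM in controls and 3601 to 3942 CPM with AMI-5. Its part in the lower SoxC values was not tested.

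Neurons and glia, where SoxC and SoxD genes are also expressed, gave few calls, in both directions. Of 16 listed genes, 3 were higher and 4 lower around a median log2 fold change of -0.17. Over all tested genes 27.5% were higher and 26.6% lower, so these counts do not set the list apart. Its summed level was 411 to 429 CPM in controls and 347 to 385 CPM with AMI-5. The neuronal tubulin Tubb3 fell by 0.64 from 51.4 ± 3.87 to 32.9 ± 4.05 CPM (SD, n = 3). The receptor Ret was at -0.40 and the neuregulin receptor Erbb3 at -0.32. All 16 genes passed the filter. Without control replicate 2, 1 gene was higher, and trend removal left 0 higher, with 8 lower in the setting over all genes. The part of these cells in the SOX values was not tested.

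Within the SoxD group, Sox13 had the largest fall of the 9 genes and Sox6 the steadiest. Sox13 (ENSMUSG00000070643, chromosome 1, 133382303 to 133424377, minus strand, mm10), whose human protein is an islet autoantigen, measured 46.7, 51.0 and 51.2 CPM in controls and 30.7, 33.5 and 30.1 CPM with AMI-5. The groups were far apart relative to their spread. This made a log2 fold change of -0.66 (SE 0.070, edgeR adjusted p = 9.32e-06), or 36.7% lower. Like Sox12, Sox13 is rich in GC, at 60.8%. It was at 0.15 after trend removal over all genes (adjusted p = 0.0653), against -0.28 over protein-coding genes (adjusted p = 0.00412).

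Sox6 (ENSMUSG00000051910, chromosome 7, 115470872 to 116038796, minus strand, mm10), which in mouse red cell precursors represses embryonic globin genes and in cartilage works with Sox5, measured 53.9, 55.6 and 51.8 CPM in controls. With AMI-5 it measured 37.6, 40.1 and 41.4 CPM, and the groups did not overlap. The log2 fold change was -0.44 (SE 0.063, edgeR adjusted p = 0.000111), or 26.1% lower. It was called lower in all 18 alternative settings, with values from -0.54 to -0.38. Its GC content is 46.1%, and removal of GC and length trends gave -0.54 over all genes and -0.48 over protein-coding genes.

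Sox5 (ENSMUSG00000041540, chromosome 6, 143828425 to 144781977, minus strand, mm10), the close relative and partner of Sox6, measured 10.7, 9.97 and 10.1 CPM in controls and 8.65, 9.57 and 9.96 CPM with AMI-5. All AMI-5 values lay below all control values, the nearest by 9.96 against 9.97. The log2 fold change was -0.13, with a 95% interval of -0.37 to 0.12, and did not pass (edgeR adjusted p = 0.357). It passed at -0.30 after trend removal over all genes (adjusted p = 0.0335), but not over protein-coding genes (-0.21, adjusted p = 0.134).

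**Figure D3:**
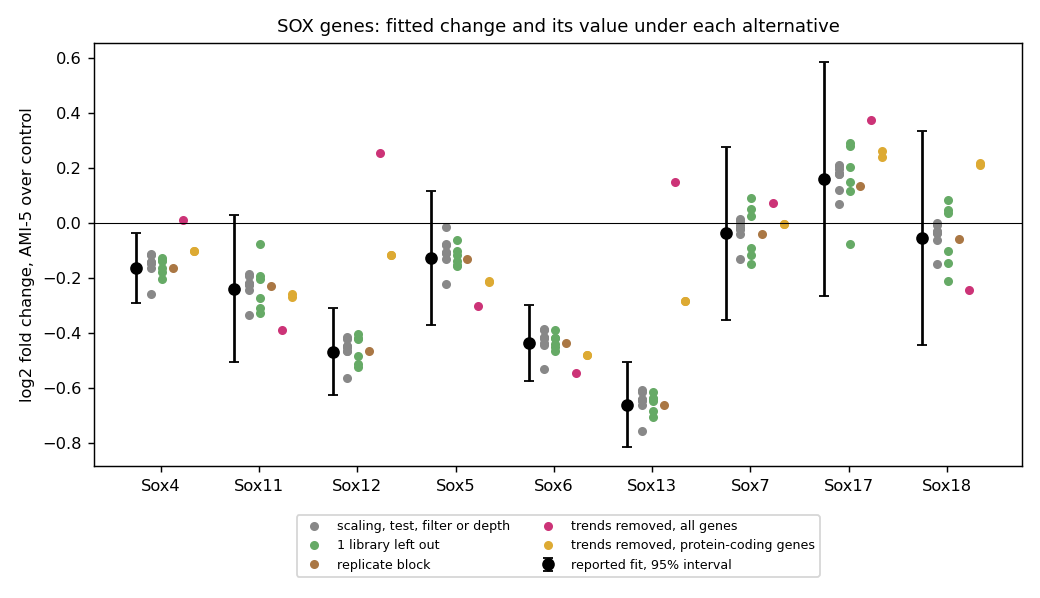
Log2 fold change (AMI-5 over control) of each SOX gene, with its 95% interval in black and its value under 18 alternative settings in colour. Sox6 stays between -0.54 and -0.38, while Sox4 (to 0.0095), Sox12 and Sox13 cross 0 once trends are taken out over all genes. The intervals of Sox5, Sox11 and the SoxF genes span 0.

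Cartilage matrix genes are the textbook targets of the SoxD genes and Sox9, and most of those tested were lower with AMI-5. Of 12 listed, 8 passed the filter. Of these, 7 were lower and 0 higher, with -0.73 as the median log2 fold change. DESeq2 and limma voom gave the same counts, and edgeR at an unadjusted p under 0.05 likewise. The proteoglycan Acan went from 14.3 ± 2.00 to 2.35 ± 0.564 CPM (SD, n = 3), and the collagen chain Col2a1 fell by 1.77 on the log2 scale. Col11a1, another chain of cartilage fibrils, went from 33.3 ± 2.76 to 13.2 ± 1.04 CPM. Col11a2 was at -0.84, Col9a2 at -0.62 and Col9a3 at -0.59. The link protein gene Hapln1 was the tested gene not called (-0.55, edgeR adjusted p = 0.126, groups overlapping), and is named after its value was seen. The cartilage genes Comp, Matn1, Matn3 and Cnmd, at under 1 CPM, were not tested. After trend removal, 4 were lower and 1 higher over all genes, and 5 were lower over protein-coding genes. Over the 6 libraries, Col11a1 had the pattern most like Sox6 (Pearson r = 0.996) and Acan that most like Sox13 (r = 0.988). These libraries fall into 2 groups, so such values mainly carry the difference between groups. Mesenchyme, from which cartilage forms elsewhere, gave calls in both directions. Of 18 genes, 6 were higher and 6 lower, around a median of 0.014, beside 27.5% and 26.6% of all tested genes. With trends removed over protein-coding genes 5 were higher and 2 lower. The matrix genes Dcn (0.83), Postn (0.71) and Lum (0.48) were higher, and the smooth muscle actin Acta2 was lower (-0.49). The fibrillar collagens Col3a1 and Col1a1, highest in mean CPM on that list, were at 0.19 and -0.27.

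Promoter windows (250 bases before to 50 after a start, RefSeq, GRCm38.p6, the assembly of mm10) were at hand for 6 of the 9 genes, Sox4, Sox5, Sox6, Sox11, Sox12 and Sox13. They were searched on both strands for the SOX core motif AACAAT and the ETS core motif CGGAAG, which do not overlap each other. Over all 32851 windows of this length, 10.7% held AACAAT and 16.9% held CGGAAG. Sox6 has 6 windows, of which 1 held AACAAT, in both orientations. That window belongs to a start inside the gene, while the window at the upstream end of Sox6 (116038695 to 116038994) held neither motif. The Sox5 window (143947057 to 143947356) also belongs to a start inside its gene. Sox13 had 1 CGGAAG. The windows of Sox4, Sox5, Sox11 and Sox12 held neither. Sox4 and Sox12 were also called lower without a match, and the 6 windows of Sox6 gave it more chances of one. Both windows with a match are shown, with the motifs in capitals.
Sox6, window 5 of 6, chr7:115824661-115824960, minus strand: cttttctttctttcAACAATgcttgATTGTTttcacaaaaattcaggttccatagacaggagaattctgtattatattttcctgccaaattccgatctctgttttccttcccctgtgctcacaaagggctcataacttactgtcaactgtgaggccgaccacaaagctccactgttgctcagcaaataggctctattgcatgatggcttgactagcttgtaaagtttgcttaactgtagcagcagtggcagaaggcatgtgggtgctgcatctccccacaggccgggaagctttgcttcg
Sox13, chr1:133424163-133424462, minus strand: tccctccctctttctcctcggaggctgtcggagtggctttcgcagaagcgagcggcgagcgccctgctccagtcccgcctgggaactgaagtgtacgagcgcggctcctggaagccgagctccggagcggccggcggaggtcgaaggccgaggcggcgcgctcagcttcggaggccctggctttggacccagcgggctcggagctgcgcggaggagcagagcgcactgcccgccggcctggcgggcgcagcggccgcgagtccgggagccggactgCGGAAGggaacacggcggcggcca
The Sox13 window has a GC content of 73.3% and that of Sox12 76.7%, against a median of 52.7% over all windows, while the window of Sox6 shown has 45%. A match is a description of these letters only.

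The SoxF genes, factors of blood and lymphatic vessels, had differences smaller than their spread, and DESeq2 and limma voom called 0 of the 3 too. Sox7 (ENSMUSG00000063060, chromosome 14, 63943674 to 63950732, plus strand, mm10), needed for vessel formation in the mouse embryo, measured 35.1, 36.6 and 46.2 CPM in controls and 35.4, 45.2 and 34.3 CPM with AMI-5. Control replicate 3 and AMI-5 replicate 2 were high and the other libraries lay together. Its log2 fold change was -0.037, with a 95% interval of -0.35 to 0.28 (edgeR adjusted p = 0.836).

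Sox18 (ENSMUSG00000046470, chromosome 2, 181669836 to 181671640, minus strand, mm10), which starts lymphatic fate in mouse veins, had the same high libraries. It measured 23.6, 25.5 and 32.2 CPM in controls and 22.7, 32.3 and 23.4 CPM with AMI-5. The log2 fold change was -0.053, with a 95% interval of -0.44 to 0.34 (edgeR adjusted p = 0.810). Its GC content is 60.9%, as high as that of Sox13, and trend removal put it at -0.24 over all genes and at 0.22 over protein-coding genes.

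Sox17 (ENSMUSG00000025902, chromosome 1, 4490931 to 4497354, minus strand, mm10), a factor of arteries and of early endoderm, was the rarest of the group, with 73 to 196 reads per library. It measured 5.80, 6.26 and 5.53 CPM in controls and 5.51, 8.72 and 5.44 CPM with AMI-5. AMI-5 replicate 2 alone stood above the controls, and the other AMI-5 libraries lay just below them. Its log2 fold change was 0.16, with a 95% interval of -0.27 to 0.59 (edgeR adjusted p = 0.511), and without AMI-5 replicate 2 it was -0.074.

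Other endothelial genes were partly lower. Of 20 listed, all of which were tested, 9 were lower and 0 higher, and the median log2 fold change was -0.33. DESeq2 called 8 lower, limma voom 10, and both 0 higher, as did edgeR at an unadjusted p under 0.05. Plvap, of the diaphragms of capillary walls, went from 27.5 ± 3.84 to 15.8 ± 1.22 CPM, and the tight junction protein gene Cldn5 from 38.2 ± 3.20 to 27.3 ± 4.02 CPM (SD, n = 3). The TGF-beta coreceptor Eng was at -0.33 and Egfl7, a secreted vessel protein, at -0.52. Highest in mean CPM on the list, the cadherin Cdh5 (-0.41, edgeR adjusted p = 0.116) and Cd34 (0.14, adjusted p = 0.152), were not called. Erg (0.012), Tek (-0.054), Kdr (-0.078) and Pecam1 (0.12) were not called either, so values this small were not particular to the SoxF genes. The remaining uncalled genes lay between -0.39 (Icam2) and 0.43 (Flt1). The count of lower genes depended on single libraries. It was 14 without AMI-5 replicate 2, and 6 without AMI-5 replicate 3, where 1 was higher. When control replicate 1, control replicate 3 or the first AMI-5 library was left out it was 5. After trend removal it was 5 over all genes, with 2 higher, and 3 over protein-coding genes. Of 14 genes of arteries, veins and lymphatics, 8 were lower and 1 higher, or 5 lower without AMI-5 replicate 3. The venous genes Ephb4 and Nr2f2 were at -0.39 and -0.43, the guidance receptor Nrp1 at -0.30 and the arterial factor Hey1 at -0.51. The 1 higher gene was the lymphatic gene Lyve1 (0.60, edgeR adjusted p = 0.0044). Flt4, also of lymphatics, was not called (-0.017, adjusted p = 0.919).

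**Figure D4:**
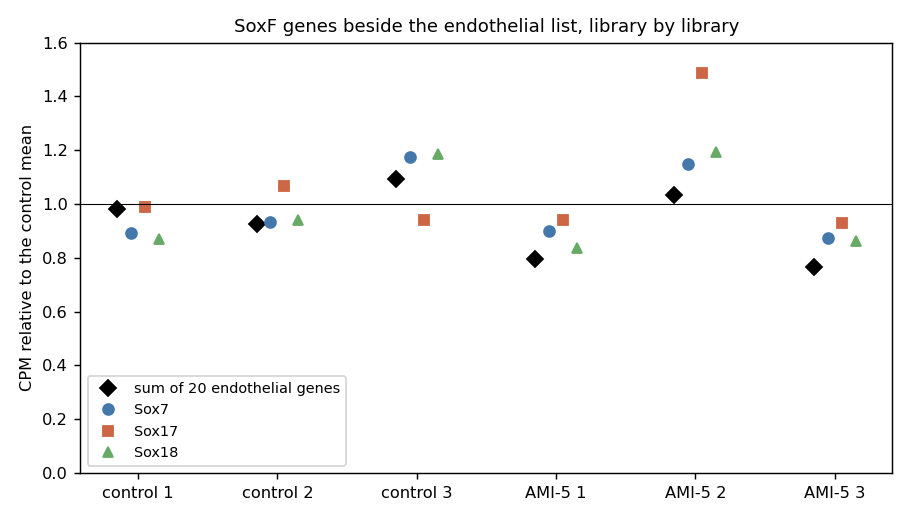
CPM of Sox7, Sox17 and Sox18 and the summed CPM of 20 endothelial genes in each library, relative to the mean of the 3 controls. The sum is at 0.794, 1.03 and 0.765 in the AMI-5 libraries, and the 3 SoxF genes lie above the sum in each of these libraries.

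The SoxF genes were therefore also set against the endothelial list, library by library, a comparison that the design did not plan. The list summed to 979, 923 and 1090 CPM in controls and 792, 1030 and 763 CPM with AMI-5, so AMI-5 replicate 2 was the highest of its group here too. Per 100 CPM of that sum, Sox7 stood at 3.58, 3.97 and 4.24 in controls and 4.46, 4.38 and 4.50 with AMI-5. Sox17 stood at 0.593, 0.678 and 0.507 in controls and 0.696, 0.847 and 0.713 with AMI-5. For both ratios all AMI-5 libraries lay above all controls. Sox18 stood at 2.41, 2.77 and 2.95 in controls and 2.86, 3.14 and 3.06 with AMI-5, with overlap. An exact two-sided permutation test over the 6 libraries gave p = 0.1 for Sox7 and Sox17 and p = 0.2 for Sox18 (adjusted over the 3 ratios 0.15, 0.15 and 0.2), and 0.1 is the smallest p that 3 against 3 samples allow. The list gene most like Sox17 over the 6 libraries was the red cell receptor Epor (r = 0.897), also highest in AMI-5 replicate 2, followed by the endothelial adhesion protein gene Pecam1 (r = 0.830). Sox18 was most like the endothelial receptor Kdr (r = 0.971) and then the netrin receptor Unc5b (r = 0.967). For Sox7 they were Vim, an intermediate filament of mesenchyme (r = 0.986), and Unc5b (r = 0.980). The part of red cells in the value of Sox17 was not tested.

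**Figure D5:**
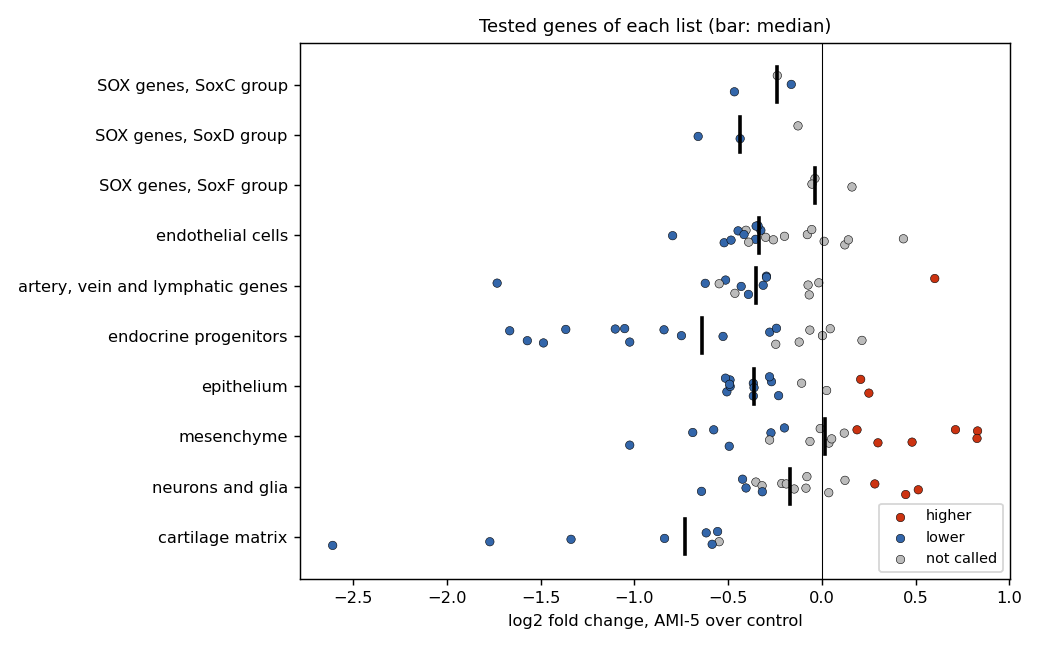
Log2 fold change (AMI-5 over control) of every tested gene of the 3 SOX groups and 7 marker lists, coloured by call, with the median as a bar; red cell and pancreas genes are left out for scale. The SoxF genes lie between -0.053 and 0.16, within the spread of the endothelial list, which has a median of -0.33. The cartilage list has a median of -0.73.

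Red cell genes, given beside Sox6 as a globin regulator, were measured at low levels and moved both ways. Of 10 tested, 5 were higher and 2 lower. The embryonic alpha globin Hba-x fell from 5.40 ± 1.53 to 1.01 ± 0.484 CPM (SD, n = 3). The other lower gene was the embryonic globin Hbb-y, at -2.22 on the log2 scale. The adult globins Hba-a2, Hbb-bt, Hbb-bs and Hba-a1 were higher (log2 fold changes of 5.45, 4.38, 3.47 and 3.13). They share 53.2% to 89.3% of their 50-mers with other genes, mostly the other adult copy of the same globin, so the value of each copy is uncertain. Their counts were above those of every control in all 3 AMI-5 libraries and highest in replicate 2. Without control replicate 1, 1 red cell gene was called higher, and 2 and 3 were without control replicates 2 and 3. Without AMI-5 replicate 1 or 3, 1 gene was called lower. The part of red cells in the value of Sox6 was not tested, and without AMI-5 replicate 2, the library with most globin reads, Sox6 was at -0.42.

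The remaining SOX genes were rare or undetected. Of 9, namely Sox1, Sox2, Sox3, Sox8, Sox14, Sox15, Sox21, Sox30 and Sry, 4 passed the filter and 0 were called by edgeR, DESeq2 or limma voom, with 1 (Sox8) at an unadjusted p under 0.05. Sox8, a relative of Sox9, had 12 to 26 reads per library and a log2 fold change of -0.73 (95% interval -1.44 to -0.028, edgeR adjusted p = 0.0737). Sox2, a factor of foregut and neural cells, had 4 to 32 reads and a value of 0.68 (-0.41 to 1.78, adjusted p = 0.267). Without control replicate 2, Sox8 was called lower (-1.01) and Sox2 higher (1.58), and with totals-only scaling Sox8 was called lower (-0.83). Sox21 (0.30) and Sox15 (-0.072) were not called either, at adjusted p = 0.443 and 0.883, but both were after trend removal over all genes (0.86 and -1.28). Sox30 had 5 to 11 reads per library, Sox3 had 0 to 4 and Sox1 had 0 or 1. Sox14 and Sry had 0 reads in all 6 libraries, which allows up to 3 counts in each, or 0.127 to 0.232 CPM, for counting error only.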

How the data were processed

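Read counts per gene were used as deposited by the authors, in 1 table with 1 column per library, matched to samples by the marks in the titles. The submitters' processing notes name bcl2fastq 2.19.1, GSNAP, featureCounts 1.6.2 and genome build mm10. The strand setting, read length and handling of multi-mapping reads are not stated in the sources used. Gene lengths are those of the deposited table. The 92 spike-in entries (1 read in all) were left out. Symbols, classes, GC content (longest transcript) and 50-mers came from GENCODE M21, which placed 99.80% of shared identifiers at an overlapping position.

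All genes were fitted in R 4.3.3 with edgeR 4.0.16 (TMM, filterByExpr, group as the only term, robust quasi-likelihood fit, two-sided F test), and 17519 genes passed the filter. SE is the log2 fold change over the root of F. CPM uses TMM-adjusted library sizes. The test and the trend removal (natural splines with 4 degrees of freedom, as offsets) were run on simulated counts, with outcomes not reported here. The simulated trend was a single straight line in GC content with no gene changed. It cannot tell which trend setting is nearer the truth where they differ. Alternatives also used DESeq2 1.42.0 and limma 3.58.1 voom.

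Library totals were 12445425 to 24805188 counts. Replicates differed by more than counting error, with a chi-square of 6.71 to 16.1 per degree of freedom between their counts. They are thus not the same library counted again, and each was counted as 1 sample. Whether they are separate biological samples cannot be told from this. The members and the 10 marker and SOX lists were chosen with earlier results of these data known. Named genes are all SOX genes, from each list up to 4 called members with the smallest p and the 2 most abundant, and for each SOX gene the 2 list genes most correlated with it, of which a part is printed and some are not reported here. Tubb3, Cldn5 and Hba-x fall under that rule. Ptf1a, Comp, Matn1, Matn3, Cnmd, Hapln1, Krt18, Esrp1, Lyve1, Flt4, Erg, Tek, Icam2 and Flt1 are named outside it, chosen after their values were seen. The protein sequences planned in the design were not used here; the box was compared by its coding bases.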

Additional observations from a re-analysis of the deposited data

How the results depend on the processing

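The 18 alternatives changed the scaling, test, filter, genes fitted, depth, GC and length trends, replicate block or the libraries used. Sox6 was called lower in all of them, and Sox13 in 17. Over all genes 4820 were called higher and 4652 lower, or 3956 and 5891 with libraries scaled by totals alone. The higher share of calls was 50.9%, against 40.2% there and 37.2% with trends removed over protein-coding genes. The median over all genes moved from -0.0013 to 0.13 with DESeq2 and 0.14 with no filter, where more low genes enter, and the SOX values moved little. The SOX genes called lower numbered 2 with GC and length trends removed over protein-coding genes, with and without the replicate block, and 1 was called higher (Sox12) with trends removed over all genes. Genes called higher over the table then numbered 2290 over protein-coding genes and 2082 with the block as well. Leaving out 1 library each gave 3 to 4 lower and 0 to 0 higher SOX genes, 4481 to 4744 higher and 3954 to 4316 lower genes in all, and 5 to 14 lower and 0 to 1 higher endothelial genes. Lower endothelial genes numbered 5 (and 2 higher) with trends removed over all genes, and 3 over protein-coding genes with or without the block. Trend removal over all genes turned Sox4 to 0.0095, Sox12 to 0.25, Sox13 to 0.15 and Sox7 to 0.072. Over protein-coding genes it turned Sox18 to 0.22 (0.21 with the block). Sox7 was also at 0.0078 with upper-quartile scaling and 0.015 in the fit of protein-coding genes. Without 1 library, Sox7 ranged from -0.15 to 0.092, Sox18 from -0.21 to 0.085 and Sox17 from -0.074 to 0.29. The causes were not tested. Totals-only scaling kept the order of levels per kb in each group. The labels do not say whether the replicate numbers pair the samples. Deviations of same-numbered libraries correlated at -0.058 to -0.038, which cannot show whether they shared a litter or culture. With the replicate block alone, 4704 genes were higher and 4482 lower, and Sox4, Sox6, Sox12 and Sox13 were still called lower. With AMI-5 libraries thinned to control depth, Sox17 was at 0.20 (SE 0.235, against 0.194 at full depth).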
